A study of Mus musculus with 4 samples.

Results

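Transcripts of 84 genes whose symbols name RNA modification enzymes and their relatives were followed in MLL-AF9 leukaemic cells treated with OHT or EtOH. The genes were taken by symbol alone, from the families Mettl, Trmt, Dus, Nsun, Pus and Trub, Alkbh, Ftsj, Tyw, Adat, Elp (Elongator subunits) and Ythd. They gave 91 of the 18061 RefSeq transcripts in the deposited table. Of the 91, 9 were lower with OHT at an adjusted p under 0.05 and none was higher. The 9 were transcripts of Dus4l, Mettl16, Dus2, Pus7, Mettl1, Mettl4, Mettl5, Mettl22 and Alkbh1.

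The cells were C57BL/6 mouse leukaemic cells, isolated from bone marrow and grown in liquid culture, and driven by the MLL-AF9 fusion. All carried the genotype Ring1a-/-;Ring1bf/f Cdkn2a-/-, so that Ring1a (Ring1) and Cdkn2a were lacking in both groups and Ring1b (Rnf2) was floxed. Of the 4 samples, 2 were treated with EtOH, ethanol, and 2 with OHT, in common usage hydroxytamoxifen, each for 72 h. RING1A and RING1B are the catalytic subunits of the Polycomb complex PRC1, and by its title the series is about how PRC1 activity keeps leukaemic cells in their state. The labels name no recombinase and do not say whether the samples of a group were separate cultures, so the p-values rest on the scatter of these samples alone, which could be purely technical. Cells without the floxed allele that received OHT were not analysed here, so OHT itself and loss of RING1B cannot be told apart.

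RNA is modified after it is made, and the enzymes act on particular classes of RNA. Transfer RNA carries the densest set: methyl groups, dihydrouridine, pseudouridine, inosine and the elaborate wobble uridines that Elongator begins help the molecule fold and read codons. Ribosomal RNA is modified mostly by small nucleolar RNA-guided particles, with a few stand-alone methyltransferases. Messenger RNA carries N6-methyladenosine, laid down by METTL3 with METTL14, removed by ALKBH5 and bound by YTH-domain proteins. Several METTL and ALKBH proteins act on proteins or DNA instead.

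The authors' file holds 1 mean per group, an average of read counts divided by a size factor for each library. The reads of the 2 libraries behind each mean could be solved exactly, and the libraries are called A and B within a group; the letters are arbitrary and cannot be matched to the sample labels. Totals ran from 3841243 to 6255320 reads. Normalised counts per library, given below, include the 1 read that was added to every count and average to the deposited mean. The authors' deposited table listed Rnf2 at 636 with EtOH and 757 with OHT (adjusted p = 1), Ring1 at 68.3 and 122, and Cdkn2a transcript NM_009877 at 49.8 and 48.5. Counts over a whole transcript need not follow the deleted part, which the labels do not give, so these values check neither genotype nor deletion. Of the myeloid markers, 10 of 10 were measured, and their summed normalised counts were 4547 and 5046 in the EtOH libraries and 7550 and 6736 in the OHT libraries. Of the myeloid markers 1 was called, Lyz2, which rose. The 3 of 5 T-cell markers measured summed to between 2.23 and 3.91 in every library. The 3 of 5 B-cell markers summed to 58.9 and 113 in EtOH and 99.4 to 189 in OHT, and the 3 of 4 endothelial markers to 15.6 and 34.8 and to 21.8 and 26.8. The 3 of 5 erythroid markers summed to 16.9 and 17.4 in EtOH and 58.8 and 91.5 in OHT, the 4 of 4 megakaryocyte markers to 1680 and 2371 and to 2368 and 3882, and the 4 of 5 stromal markers to 3.32 and 10.4 and to 29.0 and 33.6. Each of these 3 lists had 1 member called higher, Epor, Pf4 and Col1a1. The part of these differences in the results below was not tested, and in bulk RNA fewer cells of a type and less RNA per cell cannot be told apart.

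The stretches of sequence just before the start sites of 5 of the genes that fell are shown because these genes fell together and because the start of Dus4l lies close to that of another gene. Each line gives the 60 bases before the start, 5′ to 3′ on the strand of the gene, from RefSeq on build GRCm38.p6; the deposited counts used build mm9, and no other coordinates are given. Capitals mark matches to the motifs named after the lines.
Dus4l (chr12:31654827-31654886, minus strand): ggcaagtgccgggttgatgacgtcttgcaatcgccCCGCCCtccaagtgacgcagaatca
Dus2 (chr8:106011418-106011477, plus strand): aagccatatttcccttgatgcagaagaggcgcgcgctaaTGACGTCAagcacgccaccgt
Mettl1 (chr10:127041872-127041931, plus strand): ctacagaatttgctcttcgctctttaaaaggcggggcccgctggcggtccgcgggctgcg
Mettl16 (chr11:74770803-74770862, plus strand): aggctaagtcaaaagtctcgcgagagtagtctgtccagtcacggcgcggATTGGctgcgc
Alkbh1 (chr12:87443840-87443899, minus strand): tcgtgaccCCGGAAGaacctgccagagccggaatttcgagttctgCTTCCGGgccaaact
The motifs searched on both strands were the E-box CACGTG, the ETS motif CCGGAAG, the GC box GGGCGG, the CCAAT box CCAAT, the cyclic AMP response element TGACGTCA, and the longer NRF1 and YY1 motifs. The capitals are a GC box in Dus4l, a cyclic AMP response element in Dus2, a CCAAT box in Mettl16 and a pair of ETS motifs in Alkbh1; none of the motifs was found in the Mettl1 stretch.

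No single motif was common to the genes that fell. RefSeq promoters, 250 bases before to 50 after a start, were matched for 70 of the 84 genes, with 84 windows. The ETS motif was in 29.8% of these windows, in 18.2% of the windows of all genes with enough reads to be fitted and in 8.86% of all 32851 windows. The E-box was in 14.3%, 10.3% and 7.15%, and the cyclic AMP response element in 7.14%, 3.15% and 1.79%. The GC box was in 51.2%, 63.0% and 35.7%, and the CCAAT box in 38.1%, 37.9% and 37.4%. The NRF1 motif was in 13.1%, 10.2% and 4.60%, and the YY1 motif in 2.38%, 1.59% and 0.633%. Among the 10 windows of the 9 genes that fell, the GC box was in 4, the ETS motif in 3, and the E-box, the cyclic AMP response element and the YY1 motif in 2 each, and the CCAAT box and the NRF1 motif in 1 each. A match is a stretch of letters and not a bound site.

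Both dihydrouridine synthases that fell, Dus4l and Dus2, reduce uridines of tRNA. Dus4l had normalised counts of 255 and 358 in the EtOH libraries and 53.8 and 73.7 in the OHT libraries. The groups did not overlap, and the gap between them was wider than the gap within either group. The authors' deposited table gave means of 306 and 63.7, a 4.81-fold fall with an adjusted p of 4.13e-05. Dus2 had 388 and 413 in EtOH and 151 and 139.5 in OHT, and the libraries of each group lay close together. It fell 2.75-fold in the authors' deposited table (adjusted p = 0.000514). The remaining members of the family, Dus1l and Dus3l, also had both OHT libraries under both EtOH libraries. The authors' deposited table listed Dus1l at 917 and 594 (adjusted p = 0.286) and Dus3l at 629 and 429 (adjusted p = 0.447), neither of them called.

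Mettl1, Pus7 and Alkbh1 were the other tRNA genes that fell. METTL1 methylates guanosine in the variable loop of tRNA together with WDR4. Mettl1 had 282 and 333 in the EtOH libraries and 97.4 and 128 in the OHT libraries, with no overlap. Its fall in the authors' deposited table was 2.72-fold (adjusted p = 0.00102), while its partner Wdr4 was listed there at 747 and 474 (adjusted p = 0.246). PUS7 makes pseudouridine in tRNA and in some mRNAs. Pus7 had 1056 and 1089 in EtOH and 358 and 548 in OHT, so the OHT libraries differed from each other more than the EtOH libraries did. The authors' deposited table gave Pus7 a 2.37-fold fall (adjusted p = 0.000558). ALKBH1 is a dioxygenase that acts on methylated tRNA. Alkbh1 had 458 and 546 in EtOH and 249 and 272 in OHT, and its fall in the authors' deposited table was 1.93-fold (adjusted p = 0.0463).

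The genes of small nuclear RNA and ribosomal RNA that fell were all METTL methyltransferases. METTL16 methylates the U6 spliceosomal RNA and a hairpin of the Mat2a mRNA. Mettl16 had 819 and 954 in the EtOH libraries and 316 and 389 in the OHT libraries, and fell 2.52-fold in the authors' deposited table (adjusted p = 0.000409). METTL4 methylates the U2 spliceosomal RNA. Mettl4 had 289 and 242 in EtOH and 90.7 and 131 in OHT, and fell 2.40-fold in the authors' deposited table (adjusted p = 0.00433). METTL5 methylates the RNA of the small ribosomal subunit in a complex with TRMT112. Mettl5 had 244 and 275 in EtOH and 88.2 and 143 in OHT, without overlap. Its fall was 2.24-fold in the authors' deposited table (adjusted p = 0.0140), and Trmt112, also the activator of other methyltransferases, was listed there at 81.0 and 66.2 (adjusted p = 1). The exons of Mettl5 share 17.5% of their bases with exons of Ssb on the other strand in GENCODE M21, and because the TruSeq kit used keeps no strand information, reads from that overlap cannot be assigned. The same holds for 42.5% of the exon bases of Trmt112 (Esrra and Prdx5), 18.1% of those of Mettl3 (Tox4), 29.1% of those of Mettl9 (Gm9905), 17.0% of those of Adat2 (Pex3) and 10.3% of those of Nsun2 (Gm17108). Mettl22, a lysine methyltransferase of the protein KIN17 and not an RNA enzyme, had 176 and 220 in EtOH and 90.7 and 88.2 in OHT, and fell 2.21-fold in the authors' deposited table (adjusted p = 0.0438).

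**Figure D1:**
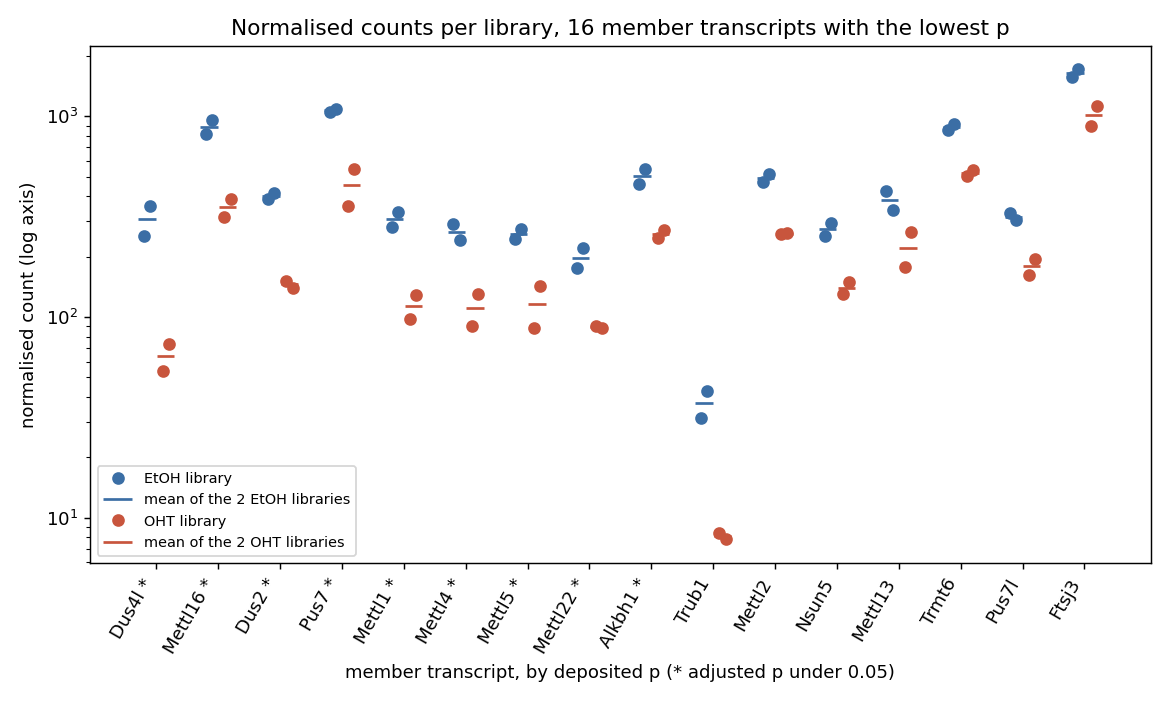
Normalised counts per library (log axis) of the 16 member transcripts with the lowest p in the authors' deposited table, in order of p; points are libraries, bars are means of the 2 EtOH (blue) or 2 OHT (red) libraries, and stars mark the 9 called. In every one of the 16 both OHT points lie under both EtOH points, as for Dus4l at 53.8 and 73.7 under 255 and 358. The choice by p favours such a gap.

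Lower calls were more frequent among the members than in the table as a whole, and OHT libraries lay under EtOH libraries in most of them. The 9 calls are 9.89% of the 91 transcripts, where 1.85% of all transcripts were called lower and 3.62% higher (5.48% in either direction). Both OHT libraries were under both EtOH libraries for 63 members, 69.2%, against 26.5% of all transcripts. The reverse held for 3 members, Alkbh5, Mettl21c and Nsun7, against 26.3% of all transcripts that lay higher, and the other 25 overlapped. The log2 fold change was negative for 76 of 91, where 48.3% of all transcripts were negative. The median was -0.49, and 0.04 over all transcripts, in the authors' deposited table. At an unadjusted p under 0.05 that table had 28 members lower and none higher, against 6.64% of all transcripts lower and 7.82% higher. Among the 82 members without a call, both OHT libraries were under both EtOH libraries for 54 (65.9%), and their median was -0.43 in the authors' deposited table.

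Levels differ between the members and the whole table, so the same counts were set beside other transcripts of like EtOH mean. Of 23 members with an EtOH mean from 300 to 1000, 5 were called lower (21.7%), against 4.88% of 3609 other transcripts. All 23 had both OHT libraries under both EtOH libraries, as did 43.5% of the others. Their median log2 fold change was -0.63, beside -0.17 for the others. From 100 to 300, 3 of 27 were called (11.1% against 2.81%), with medians of -0.54 and -0.10. Of the 6 members at 1000 and over, 1 was called, Pus7 (16.7% against 4.94%), with medians of -0.49 and -0.21. None of the 17 members under 10 was called, and their median of 0.19 was below the 0.39 of the other transcripts at that level. The median difference of a member from the others in its range was -0.42, and -0.45 with ranges of the mean over both groups. The EtOH mean enters both the range and the fold change, and no test was made of the list.

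**Figure D2:**
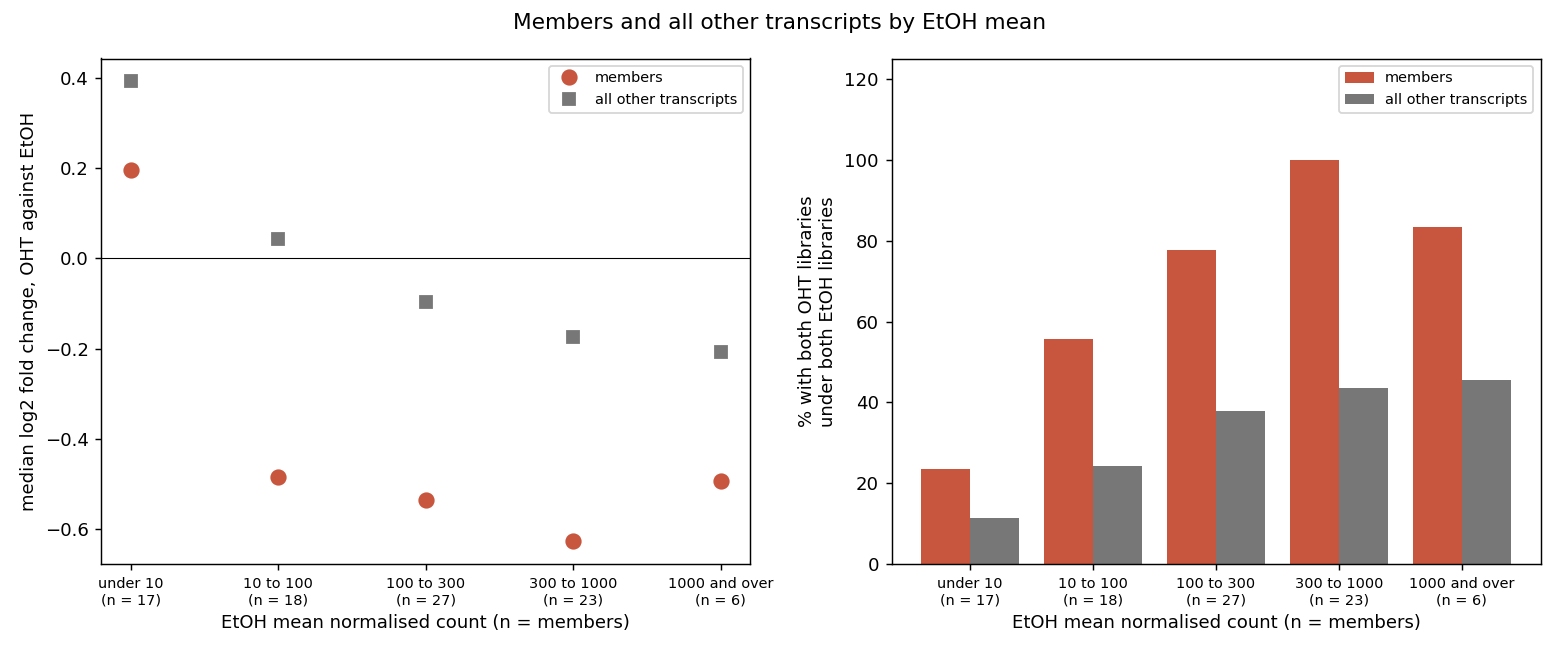
Median log2 fold change (left) and percent of transcripts with both OHT libraries under both EtOH libraries (right), for the members (red) and all other transcripts (grey) in 5 ranges of the EtOH mean normalised count. The members' medians lie lower in every range, as at 300 to 1000 with medians of -0.63 and -0.17.

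The tRNA enzymes made up most of the list. Of 51 transcripts of 45 genes, 5 were called lower (9.8%, against 1.85% of all transcripts) and none higher. The log2 fold change was negative for 42 (82.4%, against 48.3% of all transcripts). Their median was -0.58 in the authors' deposited table, and 12 of the 51 had too few reads for a fit. Nsun2, which makes 5-methylcytosine in tRNA, was the most abundant per length, at 866 normalised counts per kb in EtOH and 563 per kb in OHT. It had 2185 and 2723 in the EtOH libraries and 1363 and 1829 in the OHT libraries, and was not called in the authors' deposited table (adjusted p = 0.225). Mettl2, which makes 3-methylcytosine in tRNA, had 469 and 514 in EtOH and 259 and 262 in OHT (adjusted p = 0.0570 in the authors' deposited table). Trmt6, the partner subunit of the methyltransferase that makes 1-methyladenosine in tRNA, had 853 and 919 in EtOH and 503 and 540.3 in OHT (adjusted p = 0.110 in the authors' deposited table). Among further enzymes of 3-methylcytosine, the authors' deposited table gave means of 858 and 641 for Mettl6 and of 27.7 and 15.8 for Mettl8, without a call. Alkbh8, which completes the wobble uridine that Elongator begins, stood at 175 and 89.3, also uncalled in the authors' deposited table. For Mettl2 and Trmt6 the libraries of a group lay close together and the groups were well apart.

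Trub1, the pseudouridine synthase of the tRNA T loop, had 2 transcripts in the table, and both were lower without a call. The transcript NM_028115 had 31.5 and 43.0 in EtOH and 8.40 and 7.82 in OHT, and the authors' deposited table gave it an adjusted p of 0.0522. The transcript NM_029839 had 70.5 and 122 in EtOH and 26.04 and 39.1 in OHT; the authors' deposited table gave it 0.177. The 5 Elongator subunits, Elp2 to Elp6, each had both OHT libraries under both EtOH libraries, and none was called. Elp3 had too few reads for a fit. At an unadjusted p under 0.05 the deposited table had 2, Elp4 and Elp6. Both OHT libraries were lower for 26.5% of all transcripts, and for 37.8% to 45.5% of the others in ranges of EtOH mean from 100 up. Elp2, the most abundant of the 5 subunits, had 1138 and 973 in EtOH and 699 and 941 in OHT. In the Trmt family none of 17 transcripts was called, and 4 of them had too few reads for a fit. With 5.48% of all transcripts called, no call among 17 does not set the family apart. At an unadjusted p under 0.05, 3 were lower (Trmt6, Trmt10a and Trmt11), where 6.64% of all transcripts were lower. The median of the family was -0.32 in the authors' deposited table. Of the adenosine deaminases that make inosine in tRNA, the authors' deposited table gave Adat1 means of 144 and 80.6, Adat2 82.5 and 58.96, and Adat3 37.2 and 45.6, none of them called.

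All 6 ribosomal RNA enzymes had a negative log2 fold change in the authors' deposited table, although Nsun4 turned positive in limma-voom with total-read (0.024) or upper-quartile scaling (0.048). Over all transcripts 48.3% were negative. The median of the 6 was -0.84 in the authors' deposited table. There was 1 call, Mettl5 (16.7% of the 6, against 1.85% of all transcripts called lower). Nsun5, which methylates cytosine in the large cytosolic rRNA, had 255 and 296 in the EtOH libraries and 131 and 150 in the OHT libraries, and the authors' deposited table gave it an adjusted p of 0.0687. Exons of Pom121 on the other strand cover 29.3% of the Nsun5 exon bases. Ftsj3, of pre-ribosomal RNA processing, had 1579 and 1714 in EtOH and 899 and 1128 in OHT (adjusted p = 0.130 in the authors' deposited table). For the mitochondrial rRNA enzymes, the authors' deposited table gave means of 161 and 158 for Nsun4 and of 98.4 and 89.3 for Ftsj2. Mettl15, also of mitochondrial rRNA, was listed there at 35.8 and 18.2 (adjusted p = 0.485).

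The messenger RNA group had no call in either direction among 9 transcripts of 8 genes, and its median log2 fold change was -0.16 in the authors' deposited table. That count depends on the grouping by main substrate. Pus7 and Mettl16, both called lower, were placed in other groups although their enzymes also act on some mRNA. Of all transcripts 5.48% were called, so no call among 9 does not set the group apart. Of the writers, Mettl3 had 453 and 337 in the EtOH libraries and 295 and 272 in the OHT libraries, and Mettl14 had 464 and 417 against 286 and 276. The OHT libraries were lower for both, with adjusted p-values of 0.496 and 0.252 in the authors' deposited table. The eraser Alkbh5 had 1464 and 1276 in EtOH and 1509 and 1496 in OHT, a small difference in the other direction (adjusted p = 1 in the authors' deposited table). Among the readers, Ythdf2 had 1100 and 988 in EtOH and 837 and 952 in OHT, and Ythdc1 had 1090 and 908 against 893 and 899. These 2 readers were listed 1.17-fold and 1.12-fold lower in the authors' deposited table, beside 1.39-fold for Mettl3 and 1.57-fold for Mettl14. Ythdc2, a helicase reader, was listed there at 265 and 158, 1.67-fold lower (adjusted p = 0.186), a larger difference than that of either writer. At an unadjusted p under 0.05 the group had 2 lower, Ythdc2 and Mettl14. Whether this group differs from the tRNA group was not tested.

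Of 14 members that act on proteins or DNA, 13 had a negative log2 fold change (92.9%, against 48.3% of all transcripts). Their median was -0.49 in the authors' deposited table. Mettl22 was the only call (7.14%, against 1.85% of all transcripts called lower). Mettl13, which methylates the elongation factor eEF1A, had 423 and 341 in the EtOH libraries and 177 and 266 in the OHT libraries (adjusted p = 0.0893 in the authors' deposited table). Mettl9, a protein histidine methyltransferase, had 735 and 948 in EtOH and 732 and 660 in OHT, so that 1 OHT library was almost level with an EtOH library. Alkbh3, a repair enzyme for alkylated nucleic acid, had 372 and 415 in EtOH and 268 and 259 in OHT (adjusted p = 0.431 in the authors' deposited table). The 8 members without an assigned substrate had no call, and 2 of them had too few reads for a fit. With 5.48% of all transcripts called, no call among 8 does not set them apart. Among them Pus7l had 328 and 305 in EtOH and 163 and 195 in OHT, Mettl17 had 293 and 307 against 212 and 203, and Alkbh6 had 224 and 240 against 187 and 181.

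**Figure D3:**
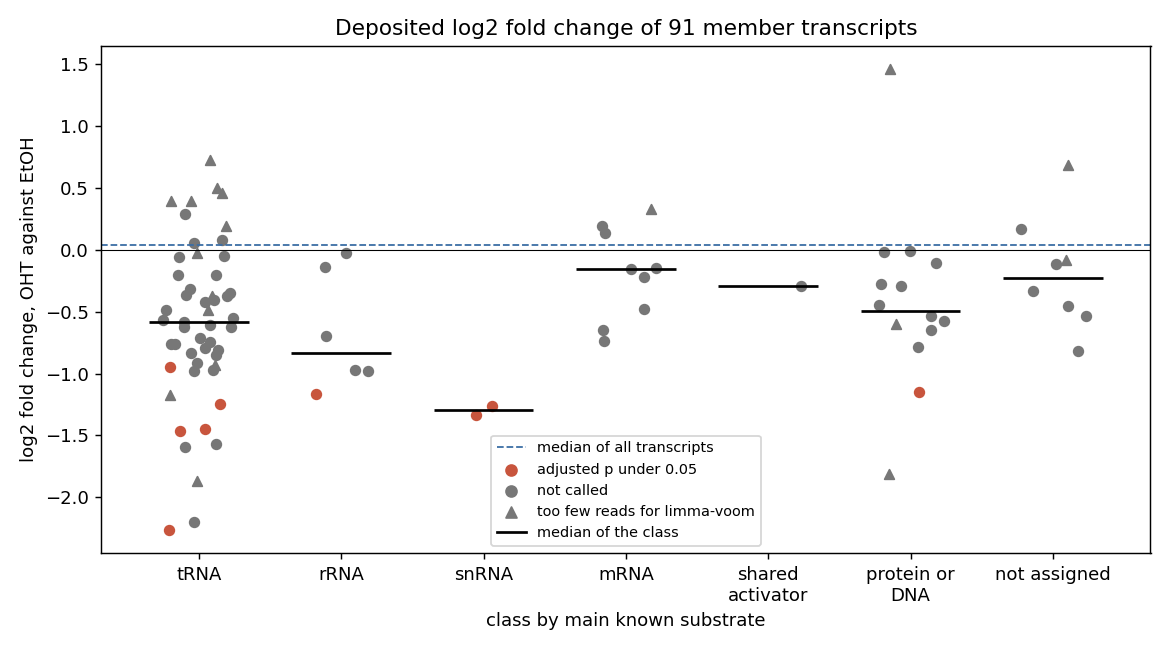
Log2 fold change of OHT against EtOH in the authors' deposited table for the 91 member transcripts (points) by the main known substrate of the enzyme, with class medians (black bars) and the median of all transcripts (dashed line, 0.04). Red points are the 9 calls and triangles had too few reads for a fit; the medians were -0.58 for tRNA, -0.84 for rRNA and -0.16 for mRNA.

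Low counts limited part of the list. Of the 91 transcripts, 18 had fewer than 10 reads in all but 1 library or in all libraries, none of them was called, and 9 were negative and 9 positive. No transcript of 13 genes had enough reads: Elp3, Mettl11b, Mettl21c, Mettl21e, Mettl24, Nsun6, Nsun7, Pus1, Trmt1, Trmt2a, Trmt61b, Tyw3 and Tyw5. The authors' deposited table gave Elp3, the catalytic subunit of Elongator, means of 14.8 and 6.57 and Trmt1 means of 5.33 and 2.80. Reads shared between isoforms may be lost or split in a table of transcripts, so such values do not show that a gene is silent. Of the 73 transcripts with enough reads, 67 had a negative log2 fold change and 6 a positive one (Adat3, Alkbh5, Trmt2b, Trmt44, Trub2 and Ythdf3). The negative share was 91.8%, and 54.7% over all transcripts with enough reads.

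A second test, limma-voom on the solved reads with Benjamini-Hochberg adjustment over 11338 transcripts, called all 9 of the same transcripts lower and 7 more of 6 genes. The added genes were Mettl2, Nsun5, Trmt6, Pus7l, Ftsj3 and both transcripts of Trub1. The 16 calls are of 73 fitted, where 5.49% of all fitted transcripts were called lower, and no member was called higher, against 9.72% of all fitted transcripts. The limma-voom log2 fold change was -2.26 ± 0.33 (SE) for Dus4l (adjusted p = 0.00362), -1.46 ± 0.25 (SE) for Dus2 (adjusted p = 0.00573) and -1.34 ± 0.22 (SE) for Mettl16 (adjusted p = 0.00534). These 3 were called lower by limma-voom in each omission of 1 library. The number of calls hung on OHT library A: without it limma-voom called 3 members lower, where 1.17% of all fitted transcripts were called lower. The calls of Pus7, Mettl1, Mettl4, Mettl5, Mettl22 and Alkbh1 were lost then, with limma-voom log2 fold changes of -0.97, -1.25, -1.03, -0.85, -1.15 and -0.87. The call of Mettl22 was lost as well when EtOH library B or OHT library B was left out, and that of Alkbh1 when OHT library B was. The count was 8 without OHT library B (3.28% of all fitted transcripts lower), 15 without EtOH library B (5.79%) and 17 without EtOH library A (9.48%). No member was called higher in any omission, where 7.01% of all fitted transcripts were higher without OHT library A, 9.23% without OHT library B, 7.55% without EtOH library B and 14.1% without EtOH library A. The direction was kept more widely: 59 of the 73 fitted members had a negative limma-voom log2 fold change in each of the 4 omissions.

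**Figure D4:**
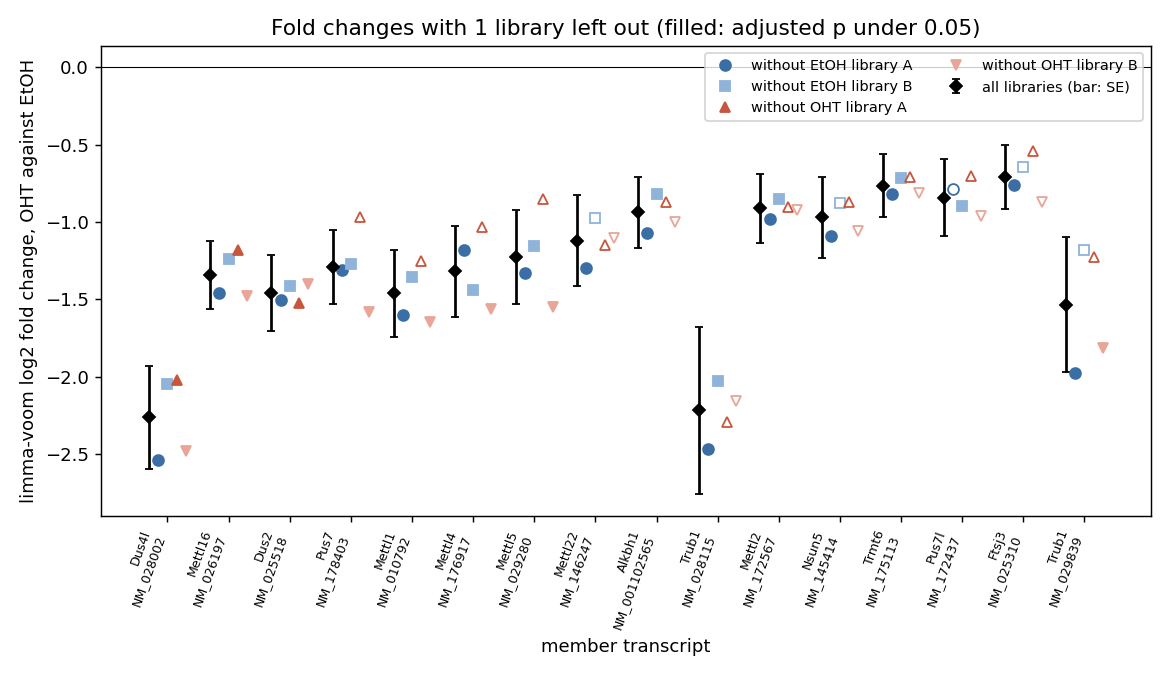
Limma-voom log2 fold changes of the 16 member transcripts called lower with all libraries (black, with SE) and with each library left out in turn (coloured; filled where the adjusted p was under 0.05). Without OHT library A (upward triangles) only Dus4l, Dus2 and Mettl16 stayed filled, although every value remained under 0.

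Other genes of the same pathways, not taken by the symbol rule, were also lower where they passed the test. Of 65 partner transcripts of 61 genes, 7 were called lower (10.8%, against 1.85% of all transcripts) and none higher. None was higher at an unadjusted p under 0.05. Of the 65, 59 had enough reads to be fitted, and 2.95% of all transcripts with enough reads were called lower in the authors' deposited table. The partners were not set beside other transcripts of like mean. Qtrtd1, a subunit of the enzyme that places queuosine in tRNA, had 443 and 362 in the EtOH libraries and 109 and 126 in the OHT libraries. It fell 3.42-fold in the authors' deposited table (adjusted p = 5.24e-06), and its partner subunit Qtrt1 was listed there at 435 and 243 (adjusted p = 0.107). Nat10, the acetyltransferase of rRNA and tRNA cytidines, had 1494 and 1396 in EtOH and 485 and 645 in OHT, and fell 2.56-fold in the authors' deposited table (adjusted p = 9.03e-05). Thumpd1, the adaptor of NAT10 on tRNA, fell 1.87-fold in the authors' deposited table (adjusted p = 0.0345). Both NAT10 and its adaptor were thus called, while the groups did not overlap for either.

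The other called partners belong to the rRNA machinery. In the authors' deposited table Dkc1, the pseudouridine synthase of box H/ACA particles, fell from 1676 to 793 (adjusted p = 0.00379), and Naf1, an assembly factor of the same particles, from 551 to 288 (adjusted p = 0.0326). In the authors' deposited table Nop58, of box C/D methylation particles, fell from 1896 to 1003 (adjusted p = 0.0227), and Rnmtl1, a mitochondrial rRNA methyltransferase, from 139 to 59.2 (adjusted p = 0.0356). Nop56, the most abundant of these partners, was at 2217 and 1221 without a call (adjusted p = 0.253 in the authors' deposited table). By class, 5 of 24 rRNA, 2 of 28 tRNA and none of 13 mRNA partner transcripts were called, where 1.85% of all transcripts were called lower. With 5.48% of all transcripts called in either direction, no call among 13 does not set the mRNA partners apart. The medians were -0.59, -0.57 and -0.39 in the authors' deposited table, and differences between these classes were not tested. Among the mRNA partners the demethylase gene Fto was listed at 726 and 565 and Zc3h13, of the methyltransferase complex, at 781 and 636 there. Wdr6, of tRNA ribose methylation, had 775 and 441 in EtOH and 684 and 1047 in OHT, and overlapped. Without OHT library A limma-voom called 2 partners, Qtrtd1 and Nat10, in place of 13.

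The position of some members allowed a comparison with a gene that starts beside them. In GENCODE M21, 28 of the 83 member genes found there had a protein-coding neighbour on the other strand whose start lay within 1 kb. None of the 28 neighbours was called in either direction in the authors' deposited table, and their median log2 fold change was -0.29. At an unadjusted p under 0.05 that table had 4 of them (Mcm8, BC055324, Dpep2 and Cryz). Of all transcripts 5.48% were called, so no call among 28 does not set the neighbours apart. At an unadjusted p under 0.05, 6.64% of all transcripts were lower and 7.82% higher. The start of Cog5, a Golgi tethering subunit gene, lies 43 bases from that of Dus4l. The authors' deposited table gave Cog5 means of 357 and 320 (adjusted p = 1), beside 306 and 63.7 for Dus4l. The limma-voom log2 fold change of Cog5 ran from -0.54 to 0.25 over omissions of 1 library. Dpep2, whose start lies 422 bases from that of Dus2, stood at 340.5 and 579, against 400.4 and 145 for Dus2, with an adjusted p of 0.223 for Dpep2 from the authors' deposited table. Slirp, 121 bases from Alkbh1, stood at 219 and 176, with no call in the authors' deposited table. Mcm8, 86 bases from Trmt6, was listed lower there, at 243 and 81.5 (adjusted p = 0.0761). The differences within these pairs were not tested.

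**Figure D5:**
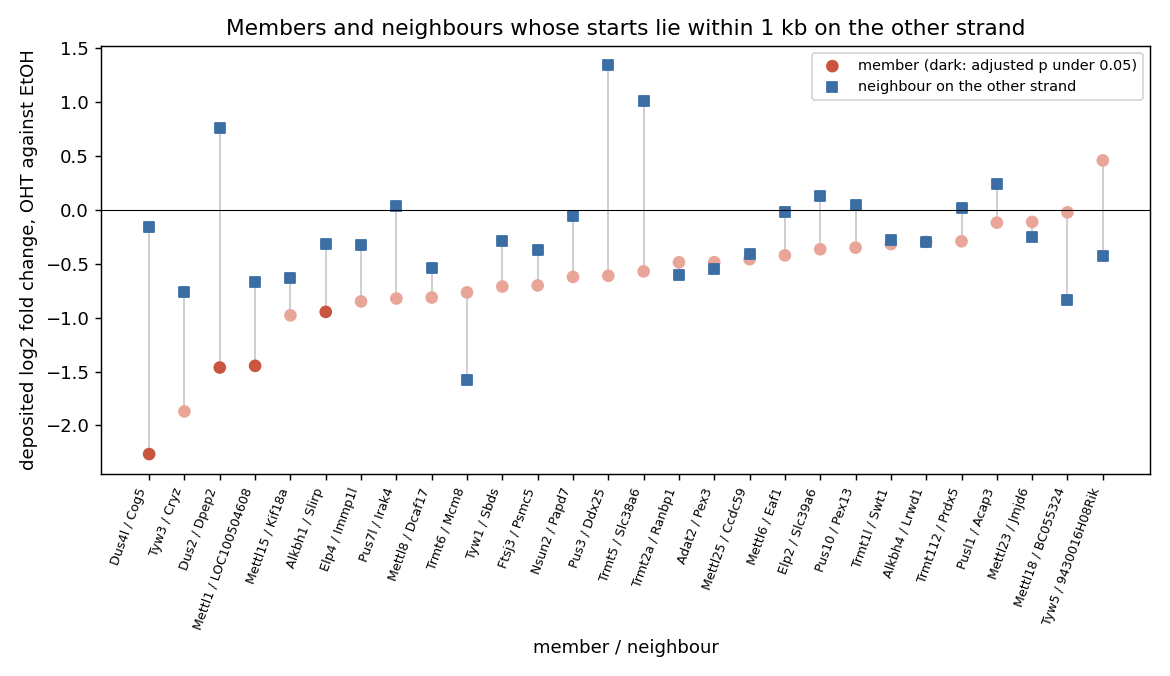
Log2 fold change of OHT against EtOH in the authors' deposited table for 28 member genes (circles; dark where the adjusted p was under 0.05) and for the neighbour that starts within 1 kb on the other strand (squares), joined by a line and ordered by the member. Dus4l lies at -2.27 with Cog5 at -0.16, and Dus2 at -1.46 with Dpep2 at 0.77.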

How the data were processed

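Per the labels' protocols, total RNA was prepared as TruSeq RNA v2 libraries. TopHat, DESeq and build mm9 are named in the submitters' processing notes; the read counter and versions are not given in the sources used here. The authors' deposited table holds, per the file headers, a signal (mean normalised count) per group, the ratio of OHT to EtOH means, its log2, and a p-value with its adjusted p, which lies within 2.63e-06 of a Benjamini-Hochberg value over the whole table. Calls use this adjusted p under 0.05, over 18061 transcripts.

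Each mean had a single solution in whole read counts for a pair of libraries, 1 being added to each count (size factors 1.21, 0.768, 1.19 and 0.896). Solved reads were fitted with limma-voom (limma 3.58.1, R 4.3.3), for transcripts with at least 10 reads in 2 libraries, and tested on simulated data. Other thresholds, scalings, filters, pseudocounts and omissions of 1 library were tried. No columns of other series were present.

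Members and lists were chosen with earlier results of these data known. Every member may be named; values are given for each call, the 3 highest means of a class and the next 6 by p, and for called partners with the 2 highest means of a class. Other names (neighbours among them) were chosen after values were seen. Lengths are those of GENCODE M21 transcripts, matched for 90 of 91. The design's marker lists were checked for cell type.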

Additional observations from a re-analysis of the deposited data

How the results depend on the processing

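No member was called higher in any fit or threshold tried. Beside 9 members lower, limma-voom with the solved size factors gave 16, and 20 with no filter on low counts; omitting 1 library gave 3 to 17. The median log2 fold change of the members, -0.49, was -0.41 with a pseudocount of 10, -0.58 and -0.56 for means of at least 10 and 50, -0.40 with upper-quartile scaling and -0.57 by limma-voom, with -0.64 to -0.46 over omissions. Partners called lower numbered 7 in the deposited table, 13 by limma-voom and 2 to 21 over omissions, with 0 to 1 higher (1 without EtOH library A). For tRNA the 5 calls became 9 by limma-voom and 2 to 11 over omissions, with medians of -0.80 to -0.50. For rRNA the 1 call became 3, and 0 to 3 over omissions, with medians of -0.96 to -0.55. For mRNA omissions gave 0 to 1 call (Ythdc2, without EtOH library B) and medians of -0.29 to -0.12; with enzymes of more than 1 substrate joined to it, the group had 2 calls and a median of -0.48. For small nuclear RNA omissions gave 1 to 2 calls and medians of -1.52 to -1.11. The cause of these shifts was not tested, beyond fewer samples in the omissions. Of 616 values for 63 named transcripts under other settings, 529 kept their direction and, where an adjusted p was computed, their side of the threshold. Of the rest, 17 lost and 58 gained a call, and 12 changed direction, all in transcripts without a call. Values with a changed pseudocount were judged by direction alone. By limma-voom with total-read and upper-quartile scaling, Nsun4 was at 0.024 and 0.048 and Cdkn2a at 0.0039 and 0.026. Over omissions the log2 fold change ran from -0.25 to 0.24 for Nsun4, -0.34 to 0.31 for Cdkn2a, -0.54 to 0.25 for Cog5, -0.61 to 0.046 for Slirp, -0.29 to 0.00019 for Ftsj2 and -0.55 to 0.013 for Zc3h13. Results of low members are limited by depth, with 18 transcripts too few in reads to fit. No paired analysis was possible because the deposited columns carry no replicate numbers.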
